A study of Homo sapiens with 25 samples.

Results

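RNA was measured in NCI-H460 cells, a human large cell lung carcinoma line, 24 h after transfection with antisense oligonucleotide (ASO) 3 against lncRNA candidate 42 (named CHiLL1 by the submitters). The control was NCI-H460 cells given a neutral control ASO sold by Qiagen as Control A. Both ASOs were used at 25 nM. The comparison takes 4 of the series' 25 RNA-seq libraries, 2 with ASO3 and 2 with the control ASO, chosen by cell line and ASO alone. Both groups come from 1 cell line. The labels do not say whether libraries 1 and 2 of a group came from separate cultures, so the p-values measure the spread between libraries, which may be technical. Set beside them are NCI-H460 cells given ASO5, another ASO against candidate 42 (2 libraries), and A549 cells, a lung adenocarcinoma line, given ASO3 or the control ASO (3 libraries each), all at 25 nM and 24 h.

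An ASO is a short synthetic nucleic acid that pairs with a complementary RNA. Many ASOs made for knockdown recruit RNase H, an enzyme that cuts the RNA strand of a DNA-RNA hybrid. RNase H works in the nucleus as well as the cytoplasm, so an intron of a transcript that is still being made can also be cut. The chemistry and the sequence of ASO3 are not stated in the labels or files used here, and no match to other transcripts was looked for.

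The deposited values, TPM per gene (a share of transcripts, scaled for gene length), summed to between 966019 and 1173905 in the 10 NCI-H460 libraries, and the sequencing depth behind them is unknown. The ASO3 libraries had the lowest scaling factors, 0.87 and 0.916, against 1.03 to 1.06 in the other 8 libraries. Library 1 of ASO3 had the fewest genes above 0 (23879, against 25296 to 27624 in the other 9). On the first principal component, which held 46.2% of the variance, the ASO3 libraries stood at 69.2 and 34.7, and the other 8 between -28 and 4.3. ASO3 library 1 therefore stands apart from library 2, and calls lost without it are given beside the genes named. Of the line's epithelial markers, KRT8 and KRT19, keratins of simple epithelium, averaged 1040 and 1770 TPM with ASO3, against 876 and 1680 TPM in controls, while the junction gene CDH1 averaged 0.0365 TPM with ASO3 and 0.0475 TPM in controls and EPCAM 1.01 TPM with ASO3 and 0.598 TPM in controls. Of 15 leukocyte markers, 2 passed the level filter, and PTPRC, the pan-leukocyte marker, was listed at 0 in all 4 libraries. The endothelial marker CDH5 was also listed at 0.

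AC107959.3, the RNA taken as candidate 42, is annotated as an antisense transcript on the minus strand of chromosome 8 (hg38, 23071377 to 23074488). It was measured at 0.593 and 0.591 TPM in the ASO3 libraries, against 1.12 and 2.21 TPM in the control libraries. Both ASO3 libraries lay below both control libraries, but groups did not overlap in 74.4% of all genes tested. The gene passed the test narrowly (log2 fold change -0.94, SE 0.34, adjusted p = 0.0467, limma). The call was lost without ASO3 library 1 (adjusted p = 0.132), ASO3 library 2 (0.0981) or control library 2 (0.28), and the adjusted p ranged from 0.0227 to 0.28 over all alternatives. With ASO5 the gene stood at 1.8 and 1.38 TPM. The strand handling of the counting is not given, so reads of the 2 strands cannot be told apart here.

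Of 13 chromosome 8p21 neighbours tested, 3 rose and 2 fell (23.1% higher and 15.4% lower), shares near or under the 23.7% and 22.9% over all genes tested. The adjacent gene TNFRSF10B, which encodes a death receptor for the ligand TRAIL, was at 62.3 and 61.4 TPM with ASO3, against 86.9 and 80.7 TPM in controls (log2 fold change -0.43, SE 0.087, adjusted p = 0.00458). The other death receptor gene, TNFRSF10A, was at 20.9 and 22.8 TPM with ASO3, against 23 and 23.5 TPM in controls, and was not called (adjusted p = 0.504). PDLIM2 (75.7 and 59.7 TPM with ASO3, against 37.1 and 31.8 TPM in controls), R3HCC1 (49.9 and 36.9 TPM with ASO3, against 22.4 and 21.1 TPM in controls) and SORBS3 (98.7 and 94.8 TPM with ASO3, against 59.9 and 60 TPM in controls) rose, with log2 fold changes of 0.96, 0.96 and 0.69. ENTPD4, an enzyme of the Golgi and lysosome, fell (-0.6) but lost its call without any 1 of the 4 libraries. In all, 4 of the 5 called neighbours kept their call in all 4 fits that left out 1 library. After each library was adjusted for a smooth trend over GC share and transcript length, SORBS3 (0.25) and ENTPD4 (-0.15) lost their calls, and TNFRSF10B (-0.27) and R3HCC1 (0.37) kept theirs at values over 1.5 times smaller.

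The difference between ASO3 and control cells was broad. Of 13757 genes that averaged 1 TPM or more over the NCI-H460 libraries, 6415 (46.6%) passed an adjusted p of 0.05 in limma. Of these, 3259 (23.7% of the genes tested) were higher and 3156 (22.9%) were lower with ASO3, and the median over all genes tested was 0.0084 on the log2 scale. A change of at least 1 on that scale was seen in 1389 called genes, of which 490 were higher and 899 were lower. Single libraries moved the number of calls by over 1.5 times: 4135 genes passed without ASO3 library 1, 3960 without control library 1 and 3416 without control library 2. The call was kept in each of the 4 fits that left out 1 library by 1316 higher genes (9.57% of those tested) and 1550 lower genes (11.3%). The split depended on the scaling: with the values as deposited, 1819 genes were higher and 4513 lower, around a median shift of all genes of -0.2. Fold changes below are relative to the scaled median. Each library was also adjusted for a smooth trend over GC share and transcript length (called the adjustment below, and chosen after seeing the data). Of 203 called genes named here with a value, 129 moved by over 1.5 times under the adjustment and 60 lost their call, and of 205 in the unadjusted fits 24 lost it without ASO3 library 1, 37 in a fit of only the groups compared and 24 with no level filter. Against the mean of the controls, the called higher genes had a median log2 difference of 0.813 in ASO3 library 1 and 0.492 in library 2. For the called lower genes it was -0.921 in library 1 and -0.642 in library 2. In bulk RNA, fewer cells that make a transcript and less of it per cell cannot be told apart.

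The largest increases were in genes of several kinds. APOE, the lipid-carrying apolipoprotein, was at 11.4 and 8.89 TPM in the ASO3 libraries, against 1.48 and 0.77 TPM in the control libraries (log2 fold change 2.74, SE 0.28, adjusted p = 0.000373). CREB5, a cAMP-responsive transcription factor, was at 41.6 and 26.7 TPM with ASO3, against 7.14 and 6.59 TPM in controls (log2 fold change 2.2, SE 0.2, adjusted p = 0.000244). PMEPA1, a feedback inhibitor of TGF-beta signalling, was at 13.6 and 12.7 TPM with ASO3, against 2.29 and 3.28 TPM in controls (log2 fold change 2.07, SE 0.17, adjusted p = 0.000187). In each of these 3 genes both ASO3 libraries lay far above both control libraries. PCOLCE, which speeds the processing of procollagen, was at 16.8 and 17.7 TPM with ASO3, against 3.44 and 4.23 TPM in controls (log2 fold change 2.04). KCNF1, a modifier subunit of potassium channels, was at 8.3 and 6.29 TPM with ASO3, against 1.38 and 1.13 TPM in controls (2.14). ZACN, a zinc-activated ion channel, was at 17.1 and 9.55 TPM with ASO3, against 1.64 and 0.543 TPM in controls (3.15). CXCR5, a chemokine receptor best known from B cells, was at 7.87 and 2.32 TPM with ASO3 and at or next to 0 in both controls, so its fold change depends on the pseudocount and is not given. MAGED4B (2.64), ADAT3 (2.15), HCG25 (2.06), EVA1B (2.02) and MT1F (2) complete the 12. MT1F is a metallothionein, a small metal-binding protein. MAGED4B has a near-identical copy, and ADAT3 overlaps another gene, so reads may have been split between copies. Of the 12 genes, 11 kept their call without any 1 library; HCG25 lost it without ASO3 library 1 (adjusted p = 0.14) and without control library 2 (0.129). After the adjustment APOE (1.77), KCNF1 (1.41), ADAT3 (1.14) and EVA1B (1.11) kept their calls at values over 1.5 times smaller.

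The largest decreases took transcripts close to loss. TEAD1, a DNA-binding partner of YAP, was at 0.966 and 1.64 TPM in the ASO3 libraries, against 20.2 and 20.2 TPM in the control libraries (log2 fold change -3.55, SE 0.18, adjusted p = 4.16e-05). AFDN, the adherens junction protein afadin, was at 1.16 and 3.06 TPM with ASO3, against 19.1 and 18.8 TPM in controls (log2 fold change -3, SE 0.3, adjusted p = 0.000371). VCL, which encodes vinculin and links adhesion sites to actin, was at 4.98 and 8.33 TPM with ASO3, against 50.9 and 50.5 TPM in controls (log2 fold change -2.88, SE 0.19, adjusted p = 7.38e-05). In all 3 genes both ASO3 libraries lay far below both control libraries. PDE3A, a cyclic nucleotide phosphodiesterase, was at 1.61 and 2.59 TPM with ASO3, against 21.8 and 20.6 TPM in controls (-3.09). SEMA3A, a secreted axon guidance cue, was at 2.27 and 3.08 TPM with ASO3, against 20.6 and 23 TPM in controls (-2.82), and EPHA5, an ephrin receptor, at 0.964 and 1.2 TPM with ASO3, against 11.1 and 11.5 TPM in controls (-2.9). THSD4, an extracellular matrix protein, was at 0.726 and 1.25 TPM with ASO3, against 13.2 and 9.83 TPM in controls (-3.02). ZNF573, a zinc finger gene, was at 0.218 and 0.336 TPM with ASO3, against 6.43 and 7.38 TPM in controls (-3.25). The read-through gene RBM14-RBM4 (-3.35), the pseudogenes PKD1P5 (-3.06) and LSM12P1 (-3.6), and the small nucleolar RNA U8 (-3.11) share sequence with other genes or are very short, and their levels are uncertain. LSM12P1 and U8 were listed at 0 in ASO3 library 1. All 12 kept their call without any 1 library. Without ASO3 library 1 the value of LSM12P1 was -1.84, over 1.5 times smaller. With no level filter LSM12P1 lost its call (limma, adjusted p = 0.0541), and its q-value in the authors' deposited table was 0.106.

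**Figure D1:**
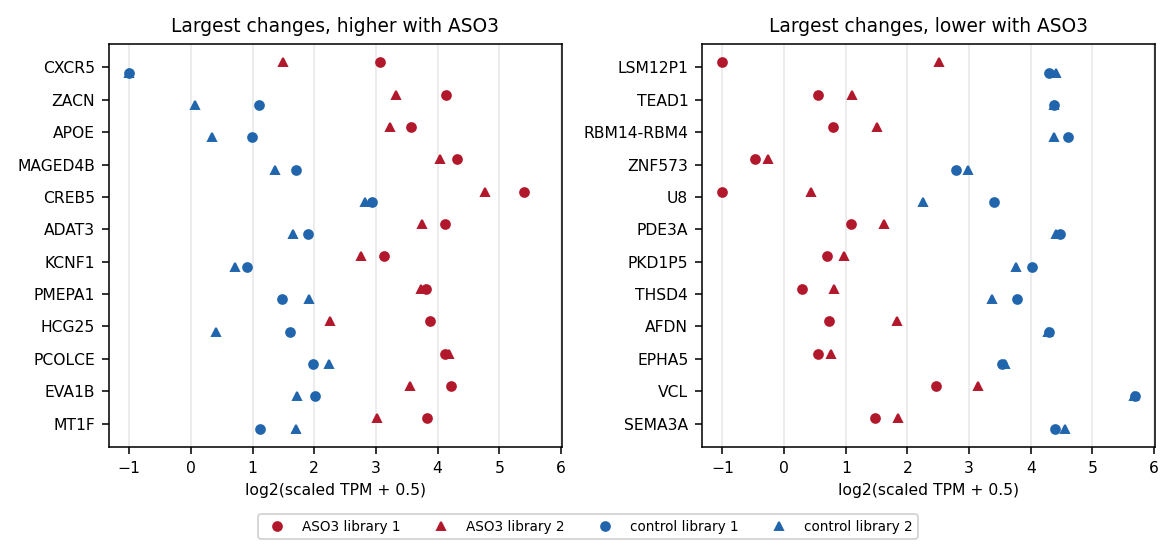
Level of the 12 genes with the largest increase (left) and the 12 with the largest decrease (right) in NCI-H460, as log2(scaled TPM + 0.5). Each point is 1 library, red for ASO3 and blue for control. The red and blue points do not overlap in any of the 24 genes, because this was a condition of their choice.

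Groups did not overlap in 10240 of the 13757 genes tested (74.4%), so separation of the points alone is common in this comparison.

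The 37 gene lists differed in which direction their members moved. Beside 23.7% of all genes tested that rose, the share of risers was over 50% in 10 lists with at least 11 members tested: small nucleolar RNA host genes, mitochondrial transcripts, cytosolic and mitochondrial ribosomal proteins, nuclear respiratory chain genes, sterol synthesis, proteasome, cytosolic chaperones, MAPK genes and epithelial markers. Beside 22.9% of all genes that fell, the share that fell was at least 50% in the lists for ERBB receptors, Hippo signalling, basement membrane and ER folding. Their median gene spans were 71698.5, 53080.5, 87949.5 and 24570 bp in that order. The median was 5588 bp in cytosolic ribosomal proteins, 6819 bp in small nucleolar RNA host genes and 24676 bp in sterol synthesis, beside 28543 bp over all genes. Of all genes spanning 50 to 100 kb 36.1% fell, and of those up to 5 kb 41.6% rose. List shares were not compared with genes of like span.

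**Figure D2:**
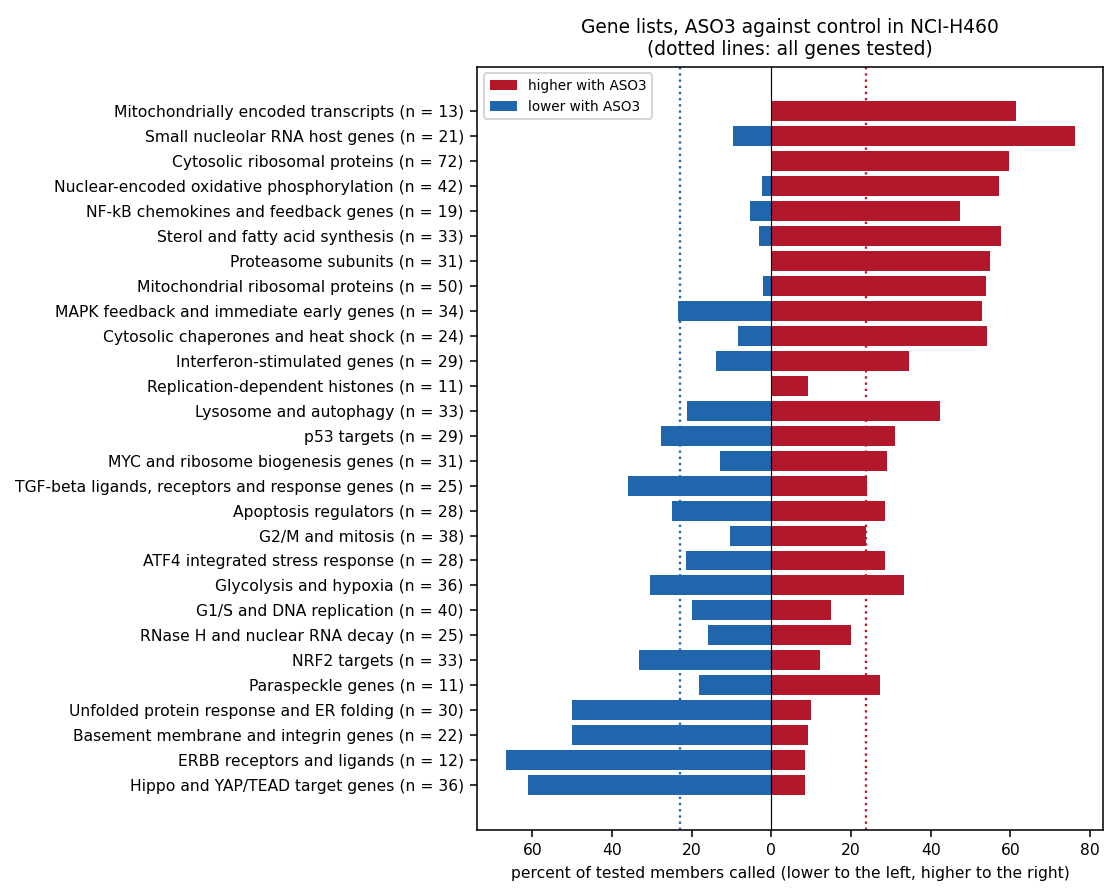
Percent of the tested members of each list that were called higher (red, right) or lower (blue, left) with ASO3. Lists with at least 11 members tested are shown, other than marker lists and the chromosome 8p21 neighbours. Dotted lines mark the percent over all genes tested, 23.7% higher and 22.9% lower.

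The Hippo pathway is a kinase cascade in which MST kinases (STK3 and STK4) and LATS kinases hold back YAP1 and its relative TAZ (gene WWTR1). Unphosphorylated YAP1 enters the nucleus and works with TEAD proteins on genes such as CCN1 and CCN2. Of 36 genes of this list tested, 22 fell and 3 rose, with a median of -0.56, and 15 fell in all 4 fits that left out 1 library. YAP1 was at 9.27 and 13 TPM with ASO3, against 26.9 and 23.9 TPM in controls (log2 fold change -1.17, SE 0.18, adjusted p = 0.00159). Of the upstream kinases, STK3 was at 6.76 and 7.09 TPM with ASO3, against 10.5 and 10.4 TPM in controls (-0.56), STK4 at 5.69 and 7.39 TPM with ASO3, against 16.1 and 15.5 TPM in controls (-1.22), LATS2 at 3.33 and 5.04 TPM with ASO3, against 11.9 and 10.1 TPM in controls (-1.31) and LATS1 at 1.67 and 2.6 TPM with ASO3, against 4.31 and 4.8 TPM in controls (-0.96). NF2, the scaffold that activates the kinases, was at 6.57 and 6.11 TPM with ASO3, against 12.2 and 12 TPM in controls (-0.88). YAP1 and these 4 kinases lay lower in both ASO3 libraries than in either control library, but groups did not overlap in 74.4% of all genes tested. The decrease was not shared by all TEAD genes: TEAD2 rose (22.6 and 17.7 TPM with ASO3, against 15 and 14 TPM in controls, 0.45), though not with the values as deposited (adjusted p = 0.153), and TEAD4 was at 33.2 and 25.2 TPM with ASO3, against 32.3 and 28.9 TPM in controls without passing the test (adjusted p = 0.65). WWTR1 was at 35.1 and 29.5 TPM with ASO3, against 48.2 and 42.8 TPM in controls (-0.49), but its sign turned after adjustment for GC share and transcript length (0.032). Among targets, ASAP1 (1.68 and 1.62 TPM with ASO3, against 8.79 and 9.08 TPM in controls, -2.13), MYOF (49.4 and 63.7 TPM with ASO3, against 177 and 169.7 TPM in controls, -1.62) and TGFB2 (-1.6) fell most clearly. CCN1 was at 19.4 and 21.5 TPM with ASO3, against 29.8 and 26.1 TPM in controls (-0.44), while CCN2 was at 123 and 108 TPM with ASO3, against 155 and 129 TPM in controls and did not pass (adjusted p = 0.137). LGALS1 (0.79) and GADD45B (0.55) rose, GADD45B with its sign turned by that adjustment (-0.012). After the adjustment, 18 of 34 annotated members fell (median -0.62). After the adjustment STK3 (-0.2), LATS1 (-0.3), TEAD2 (0.053) and LGALS1 (0.26) lost their calls, and YAP1 (-0.69), STK4 (-0.7) and TGFB2 (-1.03) kept theirs at values over 1.5 times smaller. GADD45B (0.33) lost its call with the values as deposited. LATS1 (-0.7), TEAD2 (0.28), CCN1 (-0.36), LGALS1 (0.41) and GADD45B (0.3) lost their calls without ASO3 library 1, as did TEAD2 (0.5), WWTR1 (-0.4) and CCN1 (-0.34) without control library 1 and LATS1 (-0.89), TEAD2 (0.4), LGALS1 (0.66) and GADD45B (0.45) without control library 2.

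ERBB receptors are tyrosine kinases that bind ligands of the EGF family. Of 12 members tested, 8 fell and 1 rose (median -0.52); 6 without ASO3 library 1, 4 without control library 1 and 5 without control library 2 fell. EGFR was at 2.34 and 3.51 TPM with ASO3, against 10.8 and 10.9 TPM in controls (log2 fold change -1.75, SE 0.18, adjusted p = 0.000373), and the EGF ligand gene at 3.26 and 4.09 TPM with ASO3, against 6.93 and 7.61 TPM in controls (-0.9). The receptor ERBB2 was at 19.9 and 18.3 TPM with ASO3, against 17.9 and 15.2 TPM in controls and did not pass (adjusted p = 0.195). The feedback inhibitors LRIG1 (0.83 and 1.06 TPM with ASO3, against 3.12 and 2.17 TPM in controls, -1.11) and ERRFI1 (-0.49) were also lower. AREG, the ligand amphiregulin, was the 1 member that rose (2.54 and 3.29 TPM with ASO3, against 1.53 and 1.32 TPM in controls, 0.82). After the adjustment EGF (-0.5) and ERRFI1 (-0.26) kept their calls at values over 1.5 times smaller. ERRFI1 (-0.44) lost its call without control library 1, as did AREG (0.74) without control library 2.

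Laminins, nidogens and type IV collagens build the basement membrane, and integrins bind cells to it. Of 22 members tested, 11 fell and 2 rose (median -0.48). All 11 that fell did so also without any 1 library. LAMC1 was at 114 and 121 TPM in the ASO3 libraries, against 289 and 285 TPM in the control libraries (log2 fold change -1.29, SE 0.095, adjusted p = 0.000101). ITGAV was at 4.91 and 7.76 TPM with ASO3, against 19.3 and 20.2 TPM in controls (-1.6), ITGB1, the shared beta chain, at 88.6 and 118 TPM with ASO3, against 198 and 194 TPM in controls (-0.93), LAMB1 at 81.8 and 85.2 TPM with ASO3, against 141 and 141 TPM in controls (-0.75) and NID2 at 24.4 and 30.6 TPM with ASO3, against 53.9 and 51.8 TPM in controls (-0.94). In each of these the ASO3 libraries lay below the controls, but groups did not overlap in 74.4% of all genes tested. LAMB2 (0.69) and ITGB4 (1.08) rose. After the adjustment ITGAV (-0.91), ITGB1 (-0.51) and LAMB1 (-0.42) kept their calls at values over 1.5 times smaller. ITGB4 lost its call without ASO3 library 1 (0.79) and without control library 1 (0.89).

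In TGF-beta signalling, receptors phosphorylate SMAD2 and SMAD3, which act with SMAD4. Of 25 members tested, 9 fell and 6 rose (24% higher and 36% lower, beside 23.7% and 22.9% of all genes). Of these, 5 fell in all 4 fits that left out 1 library, and 3 rose without control library 2. SMAD3 was at 5.33 and 6.73 TPM in the ASO3 libraries, against 17.4 and 16.6 TPM in the control libraries (log2 fold change -1.43, SE 0.13, adjusted p = 0.000244). SMAD2 (48.1 and 60.6 TPM with ASO3, against 80.6 and 85.6 TPM in controls, -0.62), SMAD4 (6.95 and 16.1 TPM with ASO3, against 26.1 and 24.5 TPM in controls, -1.21) and the receptor TGFBR1 (-0.75) fell as well. Of the ligands, TGFB2 fell (5.62 and 6.4 TPM with ASO3, against 19.1 and 19.4 TPM in controls, -1.6) and TGFB1 rose (88.2 and 61.7 TPM with ASO3, against 44.4 and 41.4 TPM in controls, 0.78). LTBP3, which stores latent TGF-beta, rose (0.79). Among response genes, PMEPA1 and ID1 (284 and 210.5 TPM with ASO3, against 128 and 121 TPM in controls, 0.97) rose and COL4A1 fell (-1.05). After the adjustment SMAD2 (-0.13), SMAD4 (-0.57), TGFBR1 (-0.095), TGFB1 (0.25) and LTBP3 (0.34) lost their calls, and ID1 (0.35) kept its own at a value over 1.5 times smaller. LTBP3 (0.53) lost its call without ASO3 library 1, as did SMAD4 (-1.17) without control library 1 and SMAD4 (-1.26) and LTBP3 (0.68) without control library 2. SMAD4 (-0.63) kept its call without ASO3 library 1 at a value over 1.5 times smaller.

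**Figure D3:**
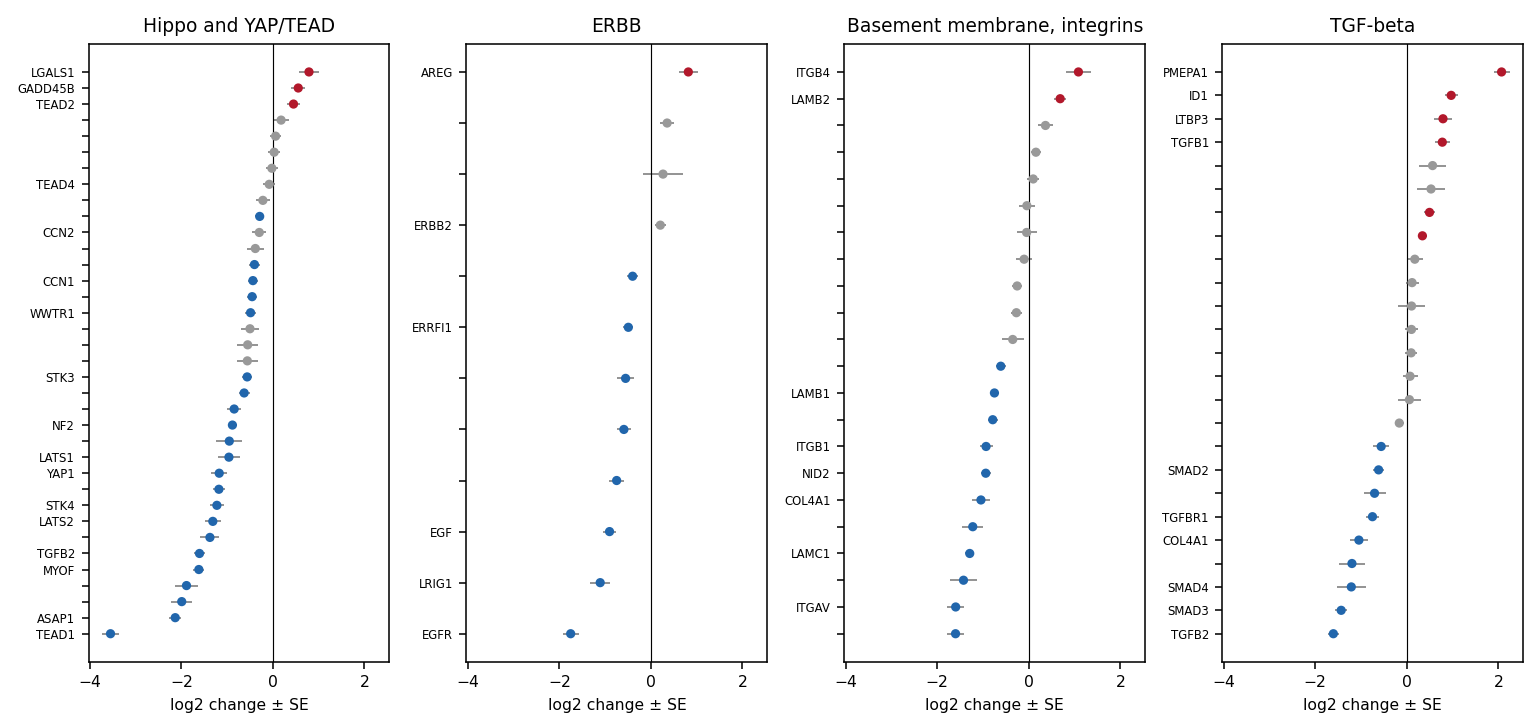
Log2 change (ASO3 minus control) ± SE for the tested members of 4 lists in NCI-H460. Red points were called higher with ASO3, blue points lower and grey points were not called; 22 of 36 Hippo members and 8 of 12 ERBB members are blue, and the members described in the text are named.

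Genes of the unfolded protein response and ER folding (chaperones and degradation factors of the endoplasmic reticulum) moved mostly down. Of 30 tested, 15 fell and 3 rose (median -0.27); 8 fell in all 4 fits that left out 1 library. SEL1L, an adaptor of ER-associated degradation, was at 6.03 and 7.44 TPM in the ASO3 libraries, against 25.1 and 21.9 TPM in the control libraries (log2 fold change -1.73, SE 0.18, adjusted p = 0.000469). The chaperone calnexin (CANX) was at 213 and 299 TPM with ASO3, against 507 and 528 TPM in controls (-1.03), and HSPA5, the ER chaperone BiP, at 432 and 397 TPM with ASO3, against 619.9 and 592 TPM in controls (-0.55). DNAJC10 (-1.1) and UGGT1 (-0.73) fell as well. SEC61B (0.54), SYVN1 (0.43) and SDF2L1 (0.65) rose, SDF2L1 with its sign turned by the adjustment (-0.22). After the adjustment HSPA5 (-0.28), UGGT1 (-0.2) and SYVN1 (0.12) lost their calls, and SEL1L (-1.05), CANX (-0.6) and DNAJC10 (-0.45) kept theirs at values over 1.5 times smaller. SYVN1 (0.21) lost its call with the values as deposited. SEC61B (0.51), SYVN1 (0.38) and SDF2L1 (0.54) lost their calls without control library 2. SEC61B (0.35) and SDF2L1 (0.38) kept their calls without ASO3 library 1 at values over 1.5 times smaller.

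The ATF4 list holds targets of the integrated stress response: 8 of 28 rose and 6 fell (median -0.015; 28.6% higher and 21.4% lower), shares near the 23.7% and 22.9% over all genes. Of these members, 6 without ASO3 library 1, 6 without control library 1 and 5 without control library 2 rose, and with the values as deposited 5 rose and 12 fell. ATF4 itself was at 766 and 607 TPM with ASO3, against 472 and 498 TPM in controls (0.49) and DDIT3, the factor CHOP, at 140.2 and 97.4 TPM with ASO3, against 65 and 76.3 TPM in controls (0.73). DDIT4 (0.61), CEBPB (0.9), PPP1R15A (0.73) and ATF3 (0.53) rose. The amino acid transporters SLC7A11 (19.2 and 23.3 TPM with ASO3, against 51.2 and 57.2 TPM in controls, -1.33) and SLC7A1 (-0.86), the lipoprotein receptor VLDLR (-1.09) and the folate enzyme MTHFD2 (-0.72) fell. After the adjustment ATF4 (0.07), DDIT4 (0.083), CEBPB (0.13) and MTHFD2 (-0.27) lost their calls, and DDIT3 (0.43), PPP1R15A (0.31), ATF3 (0.34), SLC7A11 (-0.56) and VLDLR (-0.49) kept theirs at values over 1.5 times smaller. ATF4 (0.26) and ATF3 (0.32) lost their calls with the values as deposited. ATF4 (0.32) and DDIT3 (0.47) lost their calls without ASO3 library 1, as did ATF4 (0.45) and DDIT3 (0.61) without control library 1 and ATF4 (0.53) without control library 2.

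NRF2 targets protect against oxidants. The shares to set this list beside are 23.7% higher and 22.9% lower over all genes tested. Of 33 tested, 11 fell and 4 rose (12.1% higher and 33.3% lower); 8 fell and 0 rose without any 1 library. TXNRD1, thioredoxin reductase, was at 326 and 386 TPM with ASO3, against 818 and 731 TPM in controls (log2 fold change -1.12, SE 0.13, adjusted p = 0.000605). GCLC, the rate-limiting enzyme of glutathione synthesis, was at 17.1 and 20.3 TPM with ASO3, against 36.6 and 37.1 TPM in controls (-0.96), and the exporter ABCC3 at 24.9 and 23.9 TPM with ASO3, against 57.2 and 54.2 TPM in controls (-1.17). NQO1, the most used marker of this response, was at 3282 and 2760 TPM with ASO3, against 3397 and 3272 TPM in controls and did not pass (adjusted p = 0.458). ALDH3A1 (0.59), OSGIN1 (0.62), CBR1 (0.33) and CBR3 (0.55) rose, but none of these 4 passed after the adjustment, and ALDH3A1 and CBR3 turned sign. Of all 33 members 16 fell and 1 rose under it (median -0.235), beside 2107 and 2123 of 13016 genes. OSGIN1 (0.39), CBR1 (0.11) and CBR3 (0.32) lost their calls with the values as deposited. OSGIN1 (0.24), CBR1 (0.25) and CBR3 (0.2) lost their calls without ASO3 library 1, as did ALDH3A1 (0.59), OSGIN1 (0.66), CBR1 (0.36) and CBR3 (0.57) without control library 1 and ALDH3A1 (0.59), OSGIN1 (0.57), CBR1 (0.31) and CBR3 (0.52) without control library 2.

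Enzymes of sterol and fatty acid synthesis, which SREBP transcription factors control, moved mostly up. Of 33 tested, 19 rose and 1 fell (median 0.47); 17 rose after the adjustment, and 11 rose without any 1 library. MVK, mevalonate kinase, was at 52.1 and 41.9 TPM in the ASO3 libraries, against 18.3 and 17.9 TPM in the control libraries (log2 fold change 1.34, SE 0.12, adjusted p = 0.000235). MVD, the decarboxylase of the same pathway, was at 63.7 and 51.8 TPM with ASO3, against 21.9 and 18.9 TPM in controls (log2 fold change 1.48, SE 0.13, adjusted p = 0.000235). FASN, fatty acid synthase, was at 692 and 534 TPM with ASO3, against 227 and 219 TPM in controls (log2 fold change 1.45, SE 0.15, adjusted p = 0.000418). All 3 were over 2 times the control mean in both ASO3 libraries. NSDHL (46 and 39.5 TPM with ASO3, against 22.8 and 23.6 TPM in controls, 0.86) and the regulators SREBF1 (277 and 223 TPM with ASO3, against 155 and 148 TPM in controls, 0.71) and INSIG1 (44.8 and 53.6 TPM with ASO3, against 30 and 29.6 TPM in controls, 0.71) rose as well. STARD4, a sterol carrier, was the 1 member that fell (-0.99). With the values as deposited 13 members rose and 5 fell. After the adjustment MVD (0.7), SREBF1 (0.34) and STARD4 (-0.37) kept their calls at values over 1.5 times smaller.

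CCAAT boxes, the binding sequence of the factor NF-Y that often accompanies SREBP sites, were looked for in the promoters of this list. The 250 bases before the RefSeq gene start (GRCh38.p14) are printed for 3 of the named risers, chosen as examples with their matches known, 5′ to 3′ on the gene's strand, with each CCAAT or its reverse complement ATTGG in capitals. MVK is on the plus strand at chr12:109573544-109573793 with 5 matches, MVD on the minus strand at chr16:88663092-88663341 with 3, and NSDHL on the plus strand at chrX:152830813-152831062 with 5, of which a pair overlaps.
MVK: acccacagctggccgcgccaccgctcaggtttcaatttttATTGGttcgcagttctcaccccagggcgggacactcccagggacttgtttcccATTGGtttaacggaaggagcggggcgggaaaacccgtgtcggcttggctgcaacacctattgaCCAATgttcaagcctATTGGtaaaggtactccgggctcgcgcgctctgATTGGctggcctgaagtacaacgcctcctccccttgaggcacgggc
MVD: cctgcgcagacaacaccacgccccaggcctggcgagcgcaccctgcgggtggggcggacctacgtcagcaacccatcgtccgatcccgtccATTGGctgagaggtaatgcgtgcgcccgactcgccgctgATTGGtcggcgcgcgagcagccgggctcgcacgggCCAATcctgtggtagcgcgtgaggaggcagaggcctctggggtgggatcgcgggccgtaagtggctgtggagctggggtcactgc
NSDHL: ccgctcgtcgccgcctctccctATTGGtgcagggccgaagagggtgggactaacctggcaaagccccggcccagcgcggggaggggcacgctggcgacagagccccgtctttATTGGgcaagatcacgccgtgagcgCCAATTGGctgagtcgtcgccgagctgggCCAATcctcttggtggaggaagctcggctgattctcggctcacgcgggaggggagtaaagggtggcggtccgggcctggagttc
Of 27305 promoters of this length, 33% held at least 1 match, 3.09% at least 3 and 0.363% at least 5. Of the 19 risers, 16 had a promoter in the table and 11 of them held a match, and of the 33 members tested 18 of 26 did. A match describes the letters and says nothing of binding in these cells.

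Cytosolic chaperones rose more often than they fell: 13 of 24 rose and 2 fell (median 0.33; 5 and 4 with the values as deposited), and 14 without ASO3 library 1, 7 without control library 1 and 6 without control library 2 rose. HSPB1, a small heat shock protein, was at 1124 and 774 TPM in the ASO3 libraries, against 348 and 317 TPM in the control libraries (log2 fold change 1.49, SE 0.17, adjusted p = 0.000588). The HSP90 co-chaperones AHSA1 (267 and 256 TPM with ASO3, against 145 and 148 TPM in controls, 0.83), STIP1 (0.61) and FKBP4 (0.7) rose. HSP90AA1 was at 666 and 872 TPM with ASO3, against 639 and 699.8 TPM in controls and did not pass (adjusted p = 0.334). HSPA4L (-1.2) and the mitochondrial chaperone HSPA9 (-0.43) fell. After the adjustment HSPA4L (-0.48) and HSPA9 (-0.017) lost their calls, and HSPB1 (0.65), AHSA1 (0.47) and STIP1 (0.36) kept theirs at values over 1.5 times smaller. HSPA9 (-0.41) lost its call without control library 1. HSPA4L (-0.73) kept its call without ASO3 library 1 at a value over 1.5 times smaller.

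Interferon-stimulated genes, which cells switch on against viral nucleic acid, moved in part. Of 29 tested, 10 rose and 4 fell (median 0.29, 34.5% higher and 13.8% lower, beside 23.7% and 22.9% of all genes). With the values as deposited 8 rose and 6 fell. Of these members, 5 without ASO3 library 1, 6 without control library 1 and 4 without control library 2 rose, and 2 without ASO3 library 1, 1 without control library 1 and 1 without control library 2 fell. ISG15, a ubiquitin-like modifier, was at 56.6 and 33.9 TPM in the ASO3 libraries, against 15.8 and 10.6 TPM in the control libraries (log2 fold change 1.72, SE 0.26, adjusted p = 0.00151). The regulators IRF7 (7.83 and 6.6 TPM with ASO3, against 1.85 and 2.37 TPM in controls, 1.56) and IRF9 (13.6 and 10.3 TPM with ASO3, against 5.88 and 4.97 TPM in controls, 1.06) and the membrane protein IFI6 (116 and 81 TPM with ASO3, against 51.7 and 47.5 TPM in controls, 0.96) rose. OAS3 (11.9 and 19.8 TPM with ASO3, against 27.4 and 26 TPM in controls, -0.78), IFI44L (4.52 and 6.12 TPM with ASO3, against 9.17 and 9.71 TPM in controls, -0.79) and DTX3L (-0.63) fell. After the adjustment IFI44L (-0.12) and DTX3L (-0.14) lost their calls, and ISG15 (0.94), IRF7 (0.79), IRF9 (0.64) and IFI6 (0.43) kept theirs at values over 1.5 times smaller. DTX3L (-0.49) lost its call without ASO3 library 1, as did OAS3 (-0.74) and DTX3L (-0.62) without control library 1 and OAS3 (-0.81) and DTX3L (-0.63) without control library 2. OAS3 (-0.42) kept its call without ASO3 library 1 at a value over 1.5 times smaller.

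The element that interferon-activated factors bind holds GAAA, any 2 bases and GAAA again. The same upstream stretch is shown for ISG15 (plus strand, chr1:1013247-1013496) and IFI6 (minus strand, chr1:27672193-27672442), likewise chosen with their matches known, with matches to it or to its reverse complement (TTTC, any 2 bases, TTTC) in capitals. ISG15 held 2 overlapping matches and IFI6 held 3.
ISG15: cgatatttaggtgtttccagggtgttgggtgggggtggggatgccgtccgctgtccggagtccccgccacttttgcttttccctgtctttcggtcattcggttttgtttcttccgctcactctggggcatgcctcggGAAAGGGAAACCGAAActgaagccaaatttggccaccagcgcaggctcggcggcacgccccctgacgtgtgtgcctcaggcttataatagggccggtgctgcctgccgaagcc
IFI6: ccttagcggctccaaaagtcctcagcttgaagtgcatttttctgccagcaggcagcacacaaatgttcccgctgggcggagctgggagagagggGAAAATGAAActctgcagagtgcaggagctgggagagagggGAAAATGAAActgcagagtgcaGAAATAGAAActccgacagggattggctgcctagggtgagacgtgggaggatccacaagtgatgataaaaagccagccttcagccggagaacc
Of the 27305 promoters, 3.07% held a match and 0.227% held at least 2. Of the 10 risers 5 of 7 with a promoter in the table held a match, as did 13 of 21 of all members tested.

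NF-kB genes and immediate early genes, the fast responses to signals at the cell surface, moved up more than down. Over all genes tested, 23.7% rose and 22.9% fell. With the values as deposited 6 NF-kB genes rose and 3 fell. Of 19 NF-kB genes tested, 9 rose and 1 fell (47.4% higher and 5.26% lower); 7 without ASO3 library 1, 8 without control library 1 and 4 without control library 2 rose. NFKB2 was at 98.5 and 72.5 TPM in the ASO3 libraries, against 37.7 and 32.4 TPM in the control libraries (log2 fold change 1.26, SE 0.16, adjusted p = 0.000751). The chemokine CXCL2 (96.7 and 85.2 TPM with ASO3, against 55.2 and 51.4 TPM in controls, 0.76), the inhibitor NFKBIA (0.65) and BCL3 (1.1) rose, and the feedback enzyme TNFAIP3 fell (-0.48). CXCL8 was at 259 and 277 TPM with ASO3, against 212 and 220.2 TPM in controls and did not pass (adjusted p = 0.182). Of 34 MAPK and immediate early genes, 18 rose and 8 fell, against 8 and 11 with the values as deposited; 12 without ASO3 library 1, 15 without control library 1 and 9 without control library 2 rose. JUNB was at 217 and 156 TPM with ASO3, against 89.4 and 73.8 TPM in controls (1.17) and the nuclear receptor NR4A1 at 219 and 183 TPM with ASO3, against 112 and 94 TPM in controls (0.96). JUND (0.93) and FOSL1 (0.7) rose. The ERK phosphatase DUSP6 (24.3 and 34.6 TPM with ASO3, against 51.7 and 48.3 TPM in controls, -0.77), the RAS-ERK inhibitor SPRED1 (2.44 and 2.86 TPM with ASO3, against 6.17 and 6.11 TPM in controls, -1.08), cyclin D1 (CCND1, 30.1 and 31.2 TPM with ASO3, against 55.5 and 49.9 TPM in controls, -0.77), KLF10 (-0.77) and KLF6 (-0.78) fell. FOS was at 25.8 and 20.5 TPM with ASO3, against 24.8 and 15.3 TPM in controls and MYC at 149 and 144 TPM with ASO3, against 165 and 158 TPM in controls, neither past the test (adjusted p = 0.493 and 0.211). After the adjustment JUND (0.037) and FOSL1 (0.089) lost their calls, and NFKBIA (0.26), BCL3 (0.31), TNFAIP3 (-0.24), JUNB (0.42), DUSP6 (-0.47), SPRED1 (-0.39) and KLF6 (-0.43) kept theirs at values over 1.5 times smaller. TNFAIP3 (-0.42) lost its call without control library 1.

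Of the targets of the tumour suppressor p53, 9 of 29 rose and 8 fell (median 0.18; 7 and 10 with the values as deposited), and 2 without ASO3 library 1, 2 without control library 1 and 3 without control library 2 fell. The shares (31% higher and 27.6% lower) were close to the 23.7% and 22.9% over all genes. BBC3, the cell death factor PUMA, was at 19.7 and 16.5 TPM in the ASO3 libraries, against 6.98 and 7.2 TPM in the control libraries (log2 fold change 1.28, SE 0.16, adjusted p = 0.000738). FDXR (79.6 and 68.9 TPM with ASO3, against 36.7 and 32 TPM in controls, 1.1), PHLDA3 (0.94) and BAX (325 and 258 TPM with ASO3, against 160.5 and 149 TPM in controls, 0.9) rose. PLK2 (-0.75), TNFRSF10B (given above), the death receptor gene FAS (3.8 and 6.17 TPM with ASO3, against 8.39 and 7.8 TPM in controls, -0.68) and RRM2B (-0.8) fell. CDKN1A, the cell cycle inhibitor p21, was at 74.3 and 75.6 TPM with ASO3, against 65.4 and 62.1 TPM in controls (log2 fold change 0.23, SE 0.084, adjusted p = 0.0474, a call lost without any 1 library, with its sign turned to -0.19 by the adjustment), and MDM2 at 40.6 and 30.4 TPM with ASO3, against 25.8 and 29.3 TPM in controls without passing (adjusted p = 0.0765). Of 28 apoptosis regulators, 8 rose and 7 fell (28.6% higher and 25% lower), against 5 and 9 with the values as deposited; 3 without ASO3 library 1, 3 without control library 1 and 3 without control library 2 fell. The mitochondrial-pathway genes CASP9 (44.3 and 38 TPM with ASO3, against 22.5 and 22.1 TPM in controls, 0.87) and BAK1 (0.68) rose. BCL2L2 (8.32 and 10.3 TPM with ASO3, against 14.1 and 13 TPM in controls, -0.53) and XIAP (-0.49) fell, XIAP with its sign turned by the adjustment (0.21). After the adjustment BBC3 (0.38), FAS (-0.42) and RRM2B (-0.19) lost their calls, and FDXR (0.4), PHLDA3 (0.53), BAX (0.28) and BAK1 (0.23) kept theirs at values over 1.5 times smaller. FAS (-0.37), RRM2B (-0.49) and BCL2L2 (-0.39) lost their calls without ASO3 library 1, as did FAS (-0.63), RRM2B (-0.82) and BCL2L2 (-0.47) without control library 1 and FAS (-0.73), RRM2B (-0.78) and XIAP (-0.45) without control library 2.

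Genes of energy metabolism and protein turnover rose in several lists, mostly by less than 1 on the log2 scale. Of 42 nuclear genes of oxidative phosphorylation tested, 24 rose and 1 fell (median 0.55); 15 without ASO3 library 1, 13 without control library 1 and 8 without control library 2 rose. NDUFA8, a complex I subunit, was at 269 and 219 TPM with ASO3, against 144 and 144 TPM in controls (log2 fold change 0.75, SE 0.12, adjusted p = 0.00164), and COX5B, a subunit of cytochrome c oxidase, at 722 and 502 TPM with ASO3, against 334 and 321 TPM in controls (0.88). NDUFS3 (0.76) and UQCRC1 (0.81) rose, and NDUFS1 fell (-0.51), with its sign turned by the adjustment (0.084). Of 13 transcripts of the mitochondrial genome 8 rose; 7 without ASO3 library 1, 4 without control library 1 and 4 without control library 2 rose. MT-ATP6 was at 8928 and 7909 TPM with ASO3, against 4299 and 4498 TPM in controls (0.93), with MT-ND1 (0.77), MT-ND2 (0.76) and MT-CYB (0.68) next. Mitochondrial transcripts made up 8.95% and 9.51% of the signal with ASO3, against 8.05% and 7.93% in controls. The share was 8.05% and 7.62% with ASO5. With ASO1 and ASO3 against another candidate it was 9.85% and 8.48%, and 8.74% and 8.41%. After the adjustment NDUFA8 (0.39), COX5B (0.54) and UQCRC1 (0.28) kept their calls at values over 1.5 times smaller. MT-ND2 (0.74) lost its call without control library 2.

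Of 72 cytosolic ribosomal protein genes, 43 rose and 0 fell, and all members had a positive log2 fold change (from 0.17 to 0.82, median 0.56). The calls were unstable: few or none held without ASO3 library 1 or either control library, where calls over all genes also fell in number. With the values as deposited 9 rose. RPS16 was at 4034 and 2771 TPM with ASO3, against 1997 and 1896 TPM in controls (0.78). RPL28 was at 2411 and 1651 TPM with ASO3, against 1217 and 1122 TPM in controls (0.77). RPS3 (0.73) and RPS9 (0.78) rose as well. Many processed pseudogenes resemble these genes, so their levels depend on how reads were assigned. Of 50 mitochondrial ribosomal protein genes 27 rose and 1 fell; 16 without ASO3 library 1, 12 without control library 1 and 13 without control library 2 rose. MRPL2 (0.85), MRPL9 (0.59), MRPS2 (0.72) and MRPS34 (0.85) rose, MRPS34 with a value of -0.00018 after the adjustment, and MRPL39 fell (20.9 and 16.9 TPM with ASO3, against 35.6 and 34.2 TPM in controls, -0.87). Of 31 proteasome subunits 17 rose and 0 fell (median 0.42); 13 without ASO3 library 1, 12 without control library 1 and 10 without control library 2 rose. PSMD2 was at 274 and 234 TPM with ASO3, against 158 and 152 TPM in controls (0.71), and PSMD3 (0.63), PSMD8 (0.73) and PSMC4 (0.71) rose. Small nucleolar RNA host genes, whose introns carry guide RNAs for ribosome maturation, rose in 16 of 21 cases and fell in 2; 8 without ASO3 library 1, 6 without control library 1 and 5 without control library 2 rose. SNHG7 was at 305 and 229.9 TPM with ASO3, against 136 and 135 TPM in controls (0.96), with SNHG11 (0.94), SNHG12 (0.66) and DANCR (0.48) also higher. SNHG14 (-0.75) and SNHG4 (-0.9) fell. These rises depended on the scaling as well. With the values as deposited 7 host genes, 14 mitochondrial ribosomal protein genes, 14 respiratory chain genes and 11 proteasome subunits rose. In that order 2, 3, 1 and 2 fell. After the adjustment 6 host genes, 30 cytosolic and 16 mitochondrial ribosomal protein genes, 20 respiratory chain genes and 18 proteasome subunits rose. Under it RPS9 (0.24), MRPL9 (0.17), MRPS2 (0.052), SNHG11 (0.32), SNHG12 (0.27), DANCR (0.023), SNHG14 (-0.25) and SNHG4 (-0.77) lost their calls, and RPS16 (0.33), MRPL2 (0.39), PSMD3 (0.17), PSMD8 (0.28), PSMC4 (0.25) and SNHG7 (0.28) kept theirs at values over 1.5 times smaller. DANCR (0.26) lost its call with the values as deposited. SNHG4 (-0.52) lost its call without ASO3 library 1, as did RPS3 (0.72), DANCR (0.42) and SNHG4 (-1.03) without control library 1 and RPS16 (0.74), RPL28 (0.71), RPS3 (0.74), RPS9 (0.72) and SNHG4 (-0.76) without control library 2. RPS16 (0.51), RPL28 (0.5) and RPS9 (0.46) kept their calls without ASO3 library 1 at values over 1.5 times smaller.

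Before the adjustment, cell cycle lists had shares of called members near or under those over all genes (23.7% higher and 22.9% lower). Of 40 genes of the G1/S list, which covers DNA replication, 6 rose and 8 fell (median -0.065; 15% higher and 20% lower), against 2 and 14 with the values as deposited; 3 without ASO3 library 1, 2 without control library 1 and 2 without control library 2 rose, and 6 without ASO3 library 1, 7 without control library 1 and 5 without control library 2 fell. CCNE2, cyclin E2, was at 2.18 and 2.47 TPM with ASO3, against 4.91 and 4.75 TPM in controls (-0.92) and RRM2, which makes deoxynucleotides, at 107 and 176 TPM with ASO3, against 252 and 243 TPM in controls (-0.85); RFC3 (-0.53) fell as well. POLD1 (0.58), CDT1 (0.66), MCM5 (0.5) and E2F1 (0.38) rose, E2F1 with its sign turned by the adjustment (-0.16). PCNA was at 222 and 252 TPM with ASO3, against 219 and 226 TPM in controls and did not pass (adjusted p = 0.513). Of 38 genes of G2/M and mitosis 9 rose and 4 fell (23.7% higher and 10.5% lower), against 4 and 17 with the values as deposited; 9 without ASO3 library 1, 6 without control library 1 and 5 without control library 2 rose. CDC20 (179 and 169 TPM with ASO3, against 114 and 109 TPM in controls, 0.64), UBE2C (0.66), AURKB (0.68) and PLK1 (0.42) rose, and CENPE (2.17 and 2.65 TPM with ASO3, against 5.61 and 6.5 TPM in controls, -1.17), ECT2 (-0.7), BUB1B (-0.52) and KIF11 (-0.66) fell. The proliferation marker MKI67 was at 29.7 and 35.3 TPM with ASO3, against 29.1 and 30.8 TPM in controls (adjusted p = 0.494). After the adjustment 14 of 38 G2/M members rose and 2 fell (median 0.185), while 1 of 40 G1/S members rose and 7 fell. Over all 13016 genes with a matched transcript, 2123 rose and 2107 fell under it. After the adjustment POLD1 (0.12), CDT1 (0.16), CDC20 (0.13), AURKB (0.16), PLK1 (0.023), ECT2 (-0.17), BUB1B (-0.19) and KIF11 (-0.085) lost their calls, and CCNE2 (-0.48), RFC3 (-0.29), UBE2C (0.36) and CENPE (-0.4) kept theirs at values over 1.5 times smaller. MCM5 (0.28), E2F1 (0.16) and PLK1 (0.2) lost their calls with the values as deposited. E2F1 (0.3) lost its call without ASO3 library 1, as did MCM5 (0.46) and E2F1 (0.38) without control library 1 and CDT1 (0.49), E2F1 (0.39) and KIF11 (-0.6) without control library 2. RRM2 (-0.49) and KIF11 (-0.43) kept their calls without ASO3 library 1 at values over 1.5 times smaller.

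Other lists held members in both directions, to be read beside 23.7% higher and 22.9% lower over all genes tested. Of 36 genes of glycolysis and hypoxia 12 rose and 11 fell (33.3% higher and 30.6% lower), against 5 and 16 with the values as deposited; 8 without ASO3 library 1, 6 without control library 1 and 5 without control library 2 rose, and 8 without ASO3 library 1, 5 without control library 1 and 7 without control library 2 fell. ALDOC (42.5 and 31.5 TPM with ASO3, against 19.8 and 19.6 TPM in controls, 0.88) and ENO2 (0.77) rose, while PDK1 (11.8 and 12.7 TPM with ASO3, against 26.5 and 26.8 TPM in controls, -1.09), VEGFA (25.9 and 31.5 TPM with ASO3, against 48.9 and 45.2 TPM in controls, -0.71) and the glucose transporter SLC2A1 (-0.57) fell. Of 33 lysosome and autophagy genes 14 rose and 7 fell (42.4% higher and 21.2% lower), against 5 and 8 with the values as deposited; 7 without ASO3 library 1, 8 without control library 1 and 5 without control library 2 rose, and 4 without ASO3 library 1, 1 without control library 1 and 2 without control library 2 fell. NPC2 (0.75), ATP6V0D1 (0.78) and MCOLN1 (0.95) rose, and the membrane proteins LAMP2 (21.4 and 24.9 TPM with ASO3, against 41.3 and 41.3 TPM in controls, -0.83) and LAMP1 (-0.4) fell. Of 31 MYC and ribosome biogenesis genes 9 rose and 4 fell (29% higher and 12.9% lower), against 4 and 8 with the values as deposited; 6 without ASO3 library 1, 5 without control library 1 and 5 without control library 2 rose. Of 25 genes of RNase H and nuclear RNA decay 5 rose and 4 fell (20% higher and 16% lower), against 3 and 12 with the values as deposited; 2 without ASO3 library 1, 1 without control library 1 and 1 without control library 2 fell. RNASEH1, the enzyme that most knockdown ASOs use, was at 20.9 and 23.1 TPM with ASO3, against 25.7 and 26.2 TPM in controls and did not pass (adjusted p = 0.101). RNASEH2A (0.73) and EXOSC4 (0.92) rose, and MTREX, the helicase that feeds the nuclear exosome, fell (22.7 and 23.5 TPM with ASO3, against 40.2 and 41.9 TPM in controls, -0.82). Of 11 paraspeckle genes 3 rose and 2 fell, but with the values as deposited 0 rose and 6 fell, and 2 without ASO3 library 1, 1 without control library 1 and 0 without control library 2 rose. Of 11 replication-dependent histone genes 1 rose and 0 fell, against 0 and 1 with the values as deposited, and the 1 riser lost its call without ASO3 library 1 and without either control library. After the adjustment EXOSC4 (0.084) lost its call, and ALDOC (0.45), PDK1 (-0.46), ATP6V0D1 (0.26), MCOLN1 (0.39), LAMP2 (-0.32) and MTREX (-0.34) kept theirs at values over 1.5 times smaller, and LAMP1 (-0.65) moved further from 0. LAMP1 (-0.34) lost its call without control library 1. RNASEH2A (0.48) kept its call without ASO3 library 1 at a value over 1.5 times smaller.

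Epithelial and mesenchymal markers describe the state of the line. Their shares are to be read beside 23.7% higher and 22.9% lower over all genes tested. Of 11 epithelial markers 6 rose and 1 fell; 2 without ASO3 library 1, 3 without control library 1 and 2 without control library 2 rose. With the values as deposited 2 epithelial markers rose and 1 fell, and after the adjustment 2 rose and 2 fell (median 0.0042). The tight junction genes CLDN3 (7.28 and 5.57 TPM with ASO3, against 1.87 and 0.773 TPM in controls, 1.98) and CLDN4 (79.9 and 52.4 TPM with ASO3, against 30.7 and 24.4 TPM in controls, 1.23) rose and CLDN1 fell (17.4 and 19.7 TPM with ASO3, against 35.5 and 33.3 TPM in controls, -0.88). Of 15 mesenchymal markers 4 rose and 4 fell (26.7% higher and 26.7% lower; 2 without ASO3 library 1, 3 without control library 1 and 2 without control library 2 fell). VIM, vimentin, was at 1343 and 1205 TPM with ASO3, against 895 and 815 TPM in controls (0.57) and SNAI1 at 10 and 8.57 TPM with ASO3, against 4.79 and 4.03 TPM in controls (0.997), while ZEB1 (-0.95) and COL5A1 (0.484 and 0.373 TPM with ASO3, against 3.08 and 1.86 TPM in controls, -1.65) were lower. The summed level of the endothelial list was 204 and 134 TPM with ASO3, against 79.4 and 68.5 TPM in controls, nearly all of it EGFL7 (204 and 133 TPM with ASO3, against 78.8 and 68 TPM in controls, 1.17). The leukocyte list summed to 79.7 and 60.7 TPM with ASO3, against 32.3 and 43.7 TPM in controls, mostly CD68 (0.99) and CD14 (0.74), with PTPRC and CD3E listed at 0. The fibroblast list summed to 8.61 and 10.9 TPM with ASO3, against 11.5 and 10.7 TPM in controls, with PDGFRA and FAP listed at 0. The lung alveolar and airway list summed to 102 and 80.9 TPM with ASO3, against 109 and 106 TPM in controls. The neuroendocrine list summed to 1650 and 1330 TPM with ASO3, against 1230 and 1250 TPM in controls, mostly UCHL1. The squamous list stayed under 1 TPM in each library. Their part in the results was not tested. After the adjustment ZEB1 (-0.29) and CD14 (0.25) lost their calls, and CLDN3 (1), CLDN1 (-0.53), VIM (0.21), SNAI1 (0.46), EGFL7 (0.37) and CD68 (0.58) kept theirs at values over 1.5 times smaller. CD14 (0.51) lost its call with the values as deposited. ZEB1 (-0.81) and CD14 (0.41) lost their calls without ASO3 library 1, as did CD14 (0.48) without control library 1 and ZEB1 (-0.75) without control library 2.

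The direction of change followed the size and the base composition of the gene. Of the 13757 genes, 98.2% have a span in the deposited coordinates and 94.6% a matched GENCODE 29 transcript. The median log2 fold change was 0.48 in 1921 genes that span up to 5 kb, -0.005 in 3449 genes of 20 to 50 kb, -0.44 in 1472 genes of 100 to 200 kb and -0.86 in 138 genes over 500 kb. The share called lower was 4.89% in the shortest class and 67.4% in the longest, and the share called higher was 41.6% and 0.725%. By GC share of the longest transcript, the median was -0.49 in 1929 transcripts up to 40% GC and 0.68 in 586 transcripts over 65% GC. By length of that transcript, it was 0.4 in 2318 transcripts of 1 to 2 kb and -0.51 in 452 transcripts over 10 kb. Each of the 3 gradients ran through the classes between, except that transcripts up to 1 kb had a median of 0.35.

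The 3 properties go together in the genome, so GC share was also read within a band of span, and span within a band of GC share and transcript length. Transcript length was not read with the others held. Among genes of 20 to 50 kb, the median was -0.41 in 537 genes up to 40% GC and 0.62 in 110 genes over 65% GC. Among transcripts of 3 to 5 kb with 45 to 50% GC, the median was -0.15 in 125 genes up to 20 kb and -0.62 in 44 genes over 200 kb. The 75 genes with a span that fell by 2 or more on the log2 scale had a median span of 153 kb, and the 40 genes that rose by as much had 2.34 kb, beside 28.5 kb over all genes tested. Adjusting every library for a smooth trend over GC share and transcript length left 4230 of 13016 genes called, and 2924 of the calls above kept their call and sign. What underlies the gradients was not tested.

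**Figure D4:**
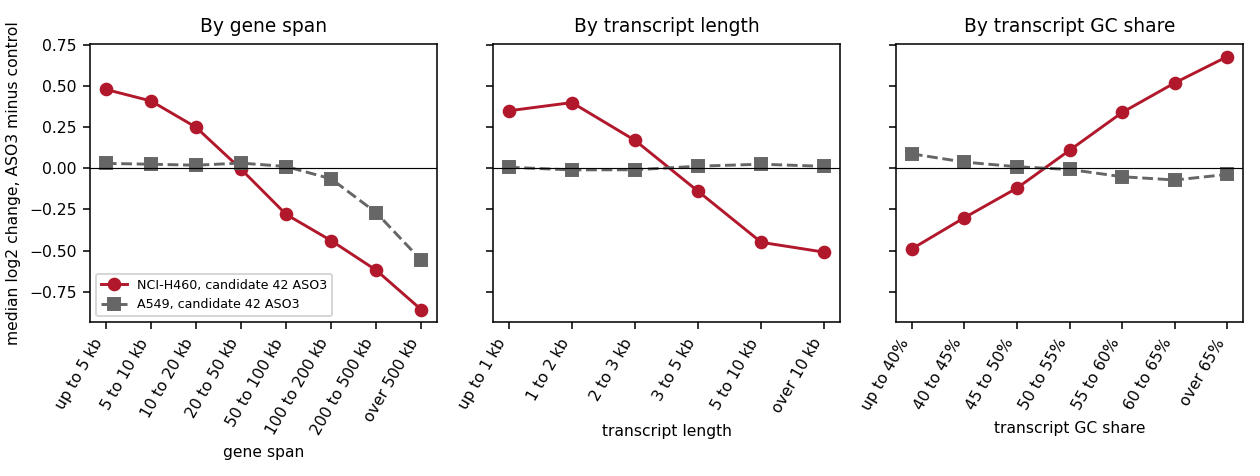
Median log2 change (ASO3 minus control) over genes binned by genomic span, by length of the longest transcript and by its GC share, in NCI-H460 (red) and A549 (grey). In NCI-H460 the median goes from 0.48 to -0.86 over the span classes, and in A549 it stays near 0 up to 100 kb and reaches -0.56 over 500 kb.

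The other NCI-H460 ASOs share the control libraries with ASO3, so their values are only set beside it. Over genes up to 5 kb the median log2 difference from control was 0.48 with ASO3, 0.085 with candidate 42 ASO5, and 0.1 and 0.15 with ASO1 and ASO3 against another candidate. Over genes above 500 kb it was -0.86, -0.36, -0.076 and -0.52 in the same order of ASOs. In A549, with its own controls, ASO3 gave 0.03 in the shortest genes and -0.56 in 102 genes over 500 kb. From transcripts up to 40% GC to those over 65%, the NCI-H460 median went from -0.49 to 0.68 with ASO3 and from -0.14 to 0.21 with ASO5. With ASO1 and ASO3 against the other candidate it went from -0.16 to 0.19 and from -0.21 to 0.32. The GC gradient thus had the same direction with every NCI-H460 ASO. Over the GC classes the A549 medians ran from 0.088 (up to 40%) to -0.037 (over 65%), with no gradient in the direction seen in NCI-H460.

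ASO3 and ASO5 were designed against the same lncRNA. The differences below are between their libraries, while the other NCI-H460 groups, controls included, enter the estimate of the spread and the scaling. Of 13757 genes, 4105 (29.8%) differed, 1947 higher and 2158 lower with ASO3. The number depended on single libraries: 1724 genes differed without ASO3 library 1, 6199 without ASO3 library 2, 2122 without ASO5 library 1 and 847 without ASO5 library 2. It was 530 in a fit of only the ASO3 and ASO5 libraries. TEAD1 was at 0.966 and 1.64 TPM with ASO3, against 13.2 and 16.3 TPM with ASO5 (limma, log2 difference -3.1, SE 0.18, adjusted p = 9.12e-05). VCL was at 4.98 and 8.33 TPM with ASO3, against 50 and 56.2 TPM with ASO5 (-2.94). PTPRD, a receptor tyrosine phosphatase, was at 1.36 and 1.96 TPM with ASO3, against 11 and 16.2 TPM with ASO5 (-2.7). In these 3 genes the groups were far apart, and the ASO5 levels of TEAD1 and VCL lay nearer the control levels than the ASO3 levels did. AFDN (-2.71), RBM14-RBM4 (-3.12) and LSM12P1 (-3.82) were also among the 6 largest differences on the lower side, and LSM12P1 lost its call without ASO5 library 2 (adjusted p = 0.0803), with only the groups compared (0.0721) and with no level filter (0.0703).

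On the higher side the MAGED family, melanoma-antigen genes of the X chromosome, took 3 of the 6 places. MAGED2 was at 133 and 111 TPM with ASO3, against 25.8 and 27.8 TPM with ASO5 (2.16, adjusted p = 5.06e-05) and 53.3 and 48.7 TPM in controls. MAGED4 (2.36) and MAGED4B (2.97) followed, and these 2 are near-identical copies. CXCR5, HCG25 (2.88) and FOXCUT (2.51) complete the 6; HCG25 lost its call without ASO3 library 1 (adjusted p = 0.0563) and FOXCUT without ASO5 library 2 (0.0513). ZNF573, among the largest decreases against control, was at 0.218 and 0.336 TPM with ASO3, against 2.17 and 1.8 TPM with ASO5, and did not pass (adjusted p = 0.0905).

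The same ASO was used in A549, where no library is shared with NCI-H460. There 1444 of 14696 genes (9.83%) passed, 472 higher (3.21%) and 972 lower (6.61%). Of 12740 genes tested in both lines, 397 fell in both, which is 13.6% of those that fell in NCI-H460 and 46.9% of those that fell in A549. A further 163 rose in both, 5.2% of the NCI-H460 risers and 44.2% of the A549 risers. Only 36 rose in NCI-H460 and fell in A549, and 22 fell in NCI-H460 and rose in A549. Of the 12 largest decreases in NCI-H460, 11 were tested in A549 and 6 fell there: TEAD1, PDE3A, THSD4, AFDN, VCL and SEMA3A. VCL averaged 8.31 TPM with ASO3 and 49.3 TPM in A549 controls (log2 fold change -2.5, adjusted p = 2.95e-06). THSD4 averaged 8.06 TPM with ASO3 and 82.7 TPM in A549 controls (-3.18, adjusted p = 0.000102). Of the 12 largest increases 11 were tested in A549 and 1 rose there, APOE, which averaged 236 TPM with ASO3 and 35.1 TPM in A549 controls (2.72, adjusted p = 0.000153).

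The difference between the responses was tested as an interaction over all 25 libraries. Of 14692 genes, 2530 (17.2%) responded differently, 1346 (9.16%) toward higher and 1184 (8.06%) toward lower values in NCI-H460, but only 201 did without NCI-H460 ASO3 library 1, 624 without NCI-H460 control library 1 and 417 without NCI-H460 control library 2. It also fell to 890 without A549 control library 3, 1009 without A549 ASO3 library 4 and 1034 without A549 ASO3 library 5, and stood at 3945 without NCI-H460 ASO3 library 2. PMEPA1 averaged 14.9 TPM with ASO3 and 3.1 TPM with control in NCI-H460, and 58.4 TPM with ASO3 and 78.4 TPM with control in A549 (difference of log2 responses 2.56, SE 0.33, adjusted p = 0.000372). G0S2, an inhibitor of fat breakdown, averaged 8.51 TPM with ASO3 and 1.62 TPM with control in NCI-H460, and 0.967 TPM with ASO3 and 1.67 TPM with control in A549 (2.59). CDH13 fell in NCI-H460, with 14.7 TPM against 86.1 TPM, but A549 hardly expressed it (0.0662 TPM with ASO3 and 0.0167 TPM with control), so its difference (-2.72) rests on NCI-H460 alone. CREB5 likewise was below 1 TPM in A549. The log2 response was lower in NCI-H460 than in A549 for ZNF573 (-3.78), PKD1P5 (-3.3), NUDT4B (-3.18), BZW1P2 (-4.72) and SMARCA5-AS1 (-2.86). It was higher for ZACN (3.95), BRICD5 (2.69) and LINC01182 (2.22). Among the 12740 genes tested in both lines, 9.67% differed toward higher and 8.21% toward lower values in NCI-H460. Of these 8 genes, PKD1P5 and LINC01182 kept their call without any 1 of the 10 libraries compared. Without NCI-H460 ASO3 library 1, the value of BZW1P2 was -1.69, and ZNF573, NUDT4B, SMARCA5-AS1 and ZACN lost their calls (adjusted p = 0.109, 0.128, 0.227 and 0.208). BRICD5 lost its call without NCI-H460 control library 2 (0.0504), and BZW1P2, ZACN and SMARCA5-AS1 lost theirs without each of 6 of the 10, ZNF573 without each of 3 and NUDT4B without each of 2. These levels were scaled over all 25 libraries, so NCI-H460 values differ slightly from those given earlier.

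Among list members, TEAD1 fell in both lines and further in NCI-H460 (difference -1.45, adjusted p = 0.0489). The log2 response was lower in NCI-H460 than in A549 for EGFR (-1.34) and CCND1 (-0.995), and higher for AREG (1.5), MVK (1.29) and IRF9 (1.16). Without NCI-H460 ASO3 library 1, TEAD1 (adjusted p = 0.259), EGFR (0.181), IRF9 (0.0551) and CCND1 (0.0501) lost their calls, and in all TEAD1 lost its call without each of 7 of the 10 libraries and EGFR without each of 6, while AREG and MVK kept theirs without any 1 of the 10. AREG averaged 3.3 TPM with ASO3 and 1.58 TPM with control in NCI-H460, and 40.8 TPM with ASO3 and 64.1 TPM with control in A549. SMAD3 and ABCC3 fell in A549 too (log2 fold changes -1.42 and -1.26), with no difference between the lines past the test (adjusted p = 0.976 and 0.737). The basement membrane list had 14 of 20 tested members lower and 0 higher in A549 (median -0.71), and the Hippo list 6 of 35 lower and 0 higher (median -0.14). The sterol list had 5 of 33 higher and 2 lower in A549, and the cytosolic ribosomal protein list had 0 of 72 called in either direction by limma. Over all genes tested in A549, 3.21% were higher and 6.61% lower, the shares to set beside these lists.

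**Figure D5:**
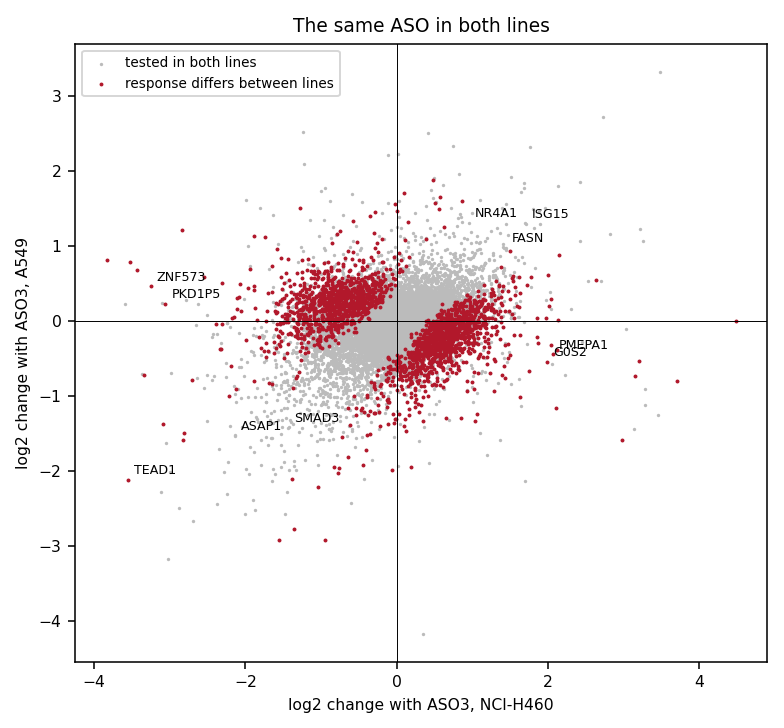
Log2 change with ASO3 in A549 (vertical) against that in NCI-H460 (horizontal) for 12740 genes tested in both lines. Red points are genes whose response differed between the lines by the interaction test; TEAD1 and SMAD3 lie in the lower left, and PMEPA1 and ZNF573 lie off the diagonal.

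The authors' deposited table for this comparison lists 18632 genes, of which 9192 had a q-value under 0.05, 4045 higher and 5147 lower. Of 13505 genes tested here and in the authors' deposited table, 5681 were called in both with the same sign and 0 with opposite signs. A further 700 were called here alone and 2854 in the authors' deposited table alone. In the authors' deposited table AC107959.3 had a log2 fold change of -1.65 and a q-value of 0.164.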

How the data were processed

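Total RNA of 4 NCI-H460 libraries (ASO3 and control) was compared, with 6 further NCI-H460 and 15 A549 libraries in the fits. The deposited table gives TPM per gene, treated here as a signal because the columns do not share 1 total; depth is unknown. The authors' deposited comparison table gives log2 fold changes and q-values. Kallisto, sleuth 0.30 and build hg38 are named per the submitters' processing notes; strand handling is not stated there. Values were divided by median-of-ratios factors over the 10 NCI-H460 libraries and taken as log2(TPM + 0.5), so fold changes understate those of low genes. Genes averaging 1 TPM or more were tested by limma 3.58.1 (R 4.3.3) over all 5 NCI-H460 groups with a trended prior and Benjamini-Hochberg adjustment over all genes (threshold 0.05). The interaction was fitted over all 25 libraries. The fit was tested on simulated data.

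Named genes were the 12 largest called increases and the 12 largest decreases with groups apart and a mean of at least 5 TPM, the 6 largest each way in the other contrasts, and in each list up to 4 called members each way with the smallest adjusted p, plus members whose role was needed; MAGED2, TGFBR1, CDKN1A and further members given in brackets alone were added with their values known. Groups, members and lists were chosen with earlier results of these data known. Gene span came from the deposited coordinates, transcript length and GC share from GENCODE 29, and promoters from RefSeq (GRCh38.p14). The adjustment for GC share and transcript length (a smooth trend in each library) and the counts of list members without single libraries were chosen after seeing the data. A few genes that fall under these rules are not reported here.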

Additional observations from a re-analysis of the deposited data

Results flagged for a closer look

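The response to ASO3 differed between NCI-H460 and A549 by the interaction test in each of the following genes, where the value is the log2 response in NCI-H460 minus that in A549 (limma). It was positive in ZACN (3.95), BRICD5 (2.69), G0S2 (2.59), PMEPA1 (2.56), LINC01182 (2.22), CREB5 (2.19), AREG (1.5), MVK (1.29) and IRF9 (1.16). It was negative in BZW1P2 (-4.72), ZNF573 (-3.78), PKD1P5 (-3.3), NUDT4B (-3.18), SMARCA5-AS1 (-2.86), CDH13 (-2.72), TEAD1 (-1.45), EGFR (-1.34) and CCND1 (-0.995). CREB5 and CDH13 were below 1 TPM in A549.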

How the results depend on the processing

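The depth behind the TPM values is unknown, and each NCI-H460 group has 2 libraries, so 1 library can decide a call. For ASO3 against control, 3850 genes passed in a fit of only the groups compared and 4230 after adjustment for GC share and transcript length, and 3416 to 7457 without 1 library. Against ASO5, 2037 genes passed with no filter, 530 with only the groups compared, and 847 to 6199 without 1 library. In the comparison of lines, 1283 genes passed with no filter, 251 with only the groups compared, 1235 after the adjustment, and 201 to 3945 without 1 library. Fits without 1 library or of only the groups compared hold fewer libraries, and the other fits hold them all. Why the counts moved was not tested. AC107959.3 kept its direction but lost its call with a pseudocount of 1 (-0.71), with no filter (-0.94) and with only the groups compared (-0.94). Without single libraries its value ran from -1.31 to -0.57, with the call kept at -1.31 (without control library 1) and lost in the other 3 fits.

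Replicate numbers are shared between groups. The correlation of deviations was 0.082 for ASO3 and control and 0.19 for ASO3 and ASO5, over 2 numbers each. As no label ties a number to a shared culture or day and there are only 2 pairs, the numbers were not taken to pair the libraries. With the replicate number as a block, 6476 genes passed against control, 4221 against ASO5 and 5740 in the comparison of lines, and AC107959.3 (-0.94) lost its call (adjusted p = 0.0596).

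Over 234 results on named genes, 1917 of 2074 comparisons with another setting kept direction and call, 145 kept direction alone and 12 turned sign. All 12 turned under the adjustment for GC share and length: GADD45B (-0.012), WWTR1 (0.032), SDF2L1 (-0.22), ALDH3A1 (-0.0028), CBR3 (-0.095), XIAP (0.21), NDUFS1 (0.084), MRPS34 (-0.00018), E2F1 (-0.16), ZEB2 (0.056), EXOSC5 (-0.16) and CDKN1A (-0.19). Without 1 library, 915 of 1044 kept direction and call, 129 kept direction alone and 0 turned sign.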
